A study of Mus musculus with 8 samples.

Results

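The genes described here encode 3 hyperpolarization-activated cyclic nucleotide-gated (HCN) channels, *Hcn2*, *Hcn3* and *Hcn4*, and their auxiliary subunit TRIP8b, which is encoded by *Pex5l*. Their rows were found by gene name, not by a threshold on measured values, and are 4 of the 45706 genes in the deposited tables. In mRNA pulled down with tagged ribosomes of PV+ interneurons, *Hcn2* was the most abundant of these 3 channel transcripts in all 8 samples. *Hcn3* was roughly an order of magnitude lower and *Hcn4* was the least abundant, at under 1 TPM. *Pex5l* was nearly as abundant as *Hcn2*. Markers of pyramidal cells and glia were detected in the samples too, and the part of other cell types in these levels was not tested. For none of the 4 genes did the difference between CNO-treated and vehicle-treated mice reach an adjusted p under 0.05 in edgeR's quasi-likelihood test. The level of *Hcn2* closely followed an index of PV+ interneuron markers relative to pyramidal cell markers, whereas no such relation passed the test for the other 3 genes.

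The series asked which mRNAs change when PV+ interneurons are made more active for 2 days. All 8 samples came from *Pvalb*Flp/+;*Neurod6*Cre/+ mice, infected at P1 in the primary somatosensory cortex (S1) with an AAV-flox-fdio virus for HA-RPL10a and myc-hM3Dq, and collected at P42 to P70. This virus expresses an HA-tagged ribosomal protein and the excitatory receptor hM3Dq in cells with Flp and without Cre, from the human synapsin promoter according to the study's methods, so that *Neurod6*-lineage pyramidal cells are left out. The 4 CNO samples came from mice given 5 injections of CNO, the ligand of hM3Dq, at 1 mg/kg over about 48 h. The 4 vehicle (VEH) samples came from mice that carried the same alleles, virus and receptor and received vehicle only. Each sample pooled tissue from 4 brains, so that values of single animals were not seen, and ribosomes were pulled down through the HA tag.

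HCN channels open when the membrane hyperpolarizes and pass a mixed inward cation current, known as Ih, that depolarizes the cell back toward threshold. Binding of cAMP to their cytosolic domain makes them open more readily. In cortex, HCN channels are best known from the dendrites of layer 5 pyramidal cells, and in fast-spiking interneurons they have been described in the axon, where they help to sustain reliable spike propagation. TRIP8b binds the C terminus of the channels, controls their delivery to the membrane and its cell-surface level, and reduces their response to cAMP.

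In the GRCm38 assembly with GENCODE annotation, *Hcn2* (ENSMUSG00000020331) lies on the plus strand at chr10:79716634-79736108, and *Hcn4* (ENSMUSG00000032338) on the plus strand at chr9:58823412-58863175. No annotated gene overlapped either of them. *Hcn3* (ENSMUSG00000028051) lies on the minus strand at chr3:89146074-89160196 and overlaps *Pklr*, a pyruvate kinase gene on the opposite strand. Of the 31-base stretches in its transcripts, 16.4% also occurred in transcripts of other genes on either strand, nearly all of them in *Pklr*. The counting was not stated to use strand, but *Pklr* was listed at 0 in all 8 samples. *Pex5l* (ENSMUSG00000027674) spans chr3:32949408-33143247 on the minus strand, with 12 annotated transcripts, and 2.92% of its 31-base stretches were shared. It overlaps 2 predicted genes on its own strand and 3 annotated genes on the other. For *Hcn2* and *Hcn4* the shared proportions were 0.157% and 0.0657%, so that reads of the channel genes could hardly have been exchanged among them.

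The proximal promoters of *Hcn2* and *Hcn4*, as given by RefSeq for GRCm38.p6, are printed here. Promoters of *Hcn3* and *Pex5l* were not in the set used. Whether promoter composition is related to the level of these genes was not tested. Each run covers the 250 bases before the RefSeq transcript start, at chr10:79716384-79716633 and chr9:58822699-58822948, both on the plus strand, and capitals mark GC boxes.
*Hcn2*: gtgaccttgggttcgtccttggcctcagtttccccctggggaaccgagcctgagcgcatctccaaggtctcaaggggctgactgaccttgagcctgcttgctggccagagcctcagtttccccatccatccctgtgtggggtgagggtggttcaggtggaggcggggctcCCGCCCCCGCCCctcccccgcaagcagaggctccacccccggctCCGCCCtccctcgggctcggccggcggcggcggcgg
*Hcn4*: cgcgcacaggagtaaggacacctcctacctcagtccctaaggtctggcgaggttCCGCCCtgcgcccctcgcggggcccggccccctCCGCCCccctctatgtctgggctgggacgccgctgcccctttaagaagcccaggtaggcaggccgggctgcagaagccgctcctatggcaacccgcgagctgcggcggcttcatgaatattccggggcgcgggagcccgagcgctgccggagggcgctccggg
Both windows were rich in G and C, at 70.4% for *Hcn2* and 71.2% for *Hcn4*, against a median of 52.4% over 32851 RefSeq promoters of this length. They held 16 and 25 CpG dinucleotides, in this order. The GC box (GGGCGG on either strand) matched 3 times in *Hcn2* and 2 times in *Hcn4*, and 32.7% of all promoters had at least 1 match. The E-box letters CANNTG occurred 1 time in the *Hcn2* window and were not found in that of *Hcn4* (66.2% of promoters had a match). No match of the short cAMP response element TGACG (17.8% of promoters), of the AP-1 letters TGANTCA (6.75%) or of the TATA letters TATAAA (12.4%) was found in either window, each searched on both strands. The motifs do not share letters with one another at these matches, and a match or its absence says nothing of the binding of a factor.

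Between 44064161 and 49413273 reads were counted on genes per sample, so that 3 counts, taken as the detection floor, corresponded to 0.0607 to 0.0681 CPM (counts scaled to the library total). This floor and the counting intervals below cover counting error only. *Fos*, an immediate early gene that follows neuronal activity, ranged from 36.9 to 83.7 TPM (counts per transcript length, scaled to a common total) in the CNO samples and from 13.8 to 20.6 TPM in the vehicle samples. All 12 markers of PV+ interneurons were detected, with a summed level of 2679 to 4160 TPM for CNO and 1255 to 3316 TPM for vehicle. The 10 pyramidal cell markers were detected too, at 1400 to 1933 TPM for CNO and 1585 to 2263 TPM for vehicle, and none of the markers of astrocytes, oligodendrocytes or microglia was at 0 in every sample. VEH replicate 1 stood apart, with 1255 TPM of PV+ interneuron markers against 3042 to 3316 TPM in the other vehicle samples. A lower level in such bulk samples can come from fewer cells of a type or from less RNA per cell, and these cannot be told apart. Of 17495 genes tested by edgeR's quasi-likelihood test, 0 passed an adjusted p under 0.05 with a change of more than 1.5-fold and a mean level over 1 TPM (0% of the genes tested). An unadjusted p under 0.05 was reached by 716 genes (4.09%), of which 252 (1.44%) were higher and 464 (2.65%) lower with CNO. With the same cut-offs, edgeR's likelihood ratio test with robust dispersion called 12 genes (0.0686%) and the Wald test of DESeq2 called 10 (0.0572%).

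Levels were compared between the genes on the TPM scale, which corrects for transcript length. *Hcn2* had the highest mean level, at 81.9 TPM ± 12.6 (SD, n = 8), and lay above 86.4% of the genes tested. *Pex5l* followed with 58.0 TPM ± 8.0 (SD, n = 8), above 80.8% of them. *Hcn3* reached 6.42 TPM ± 1.46 (SD, n = 8) and *Hcn4* 0.486 TPM ± 0.129 (SD, n = 8), above 38.0% and 5.85% of the genes tested. Within samples, the *Hcn2* level exceeded that of *Hcn3* by 3.69 ± 0.50 on the log2 scale (SD, n = 8), a 12.9-fold difference, and *Hcn3* exceeded *Hcn4* by 3.73 ± 0.44, a 13.3-fold difference. The *Pex5l* level lay 3.19 ± 0.43 above that of *Hcn3*, on the same scale. Each of these 3 differences had the same sign in 8 of 8 samples, with an adjusted p of 0.00937 (two-sided exact sign-flip permutation test, adjusted over 6 pairs), and an unadjusted p of 0.00781 is the smallest that 8 samples can give. The closest neighbours were *Hcn2* and *Pex5l*, whose levels differed by 0.50 ± 0.37 (log2 TPM, SD, n = 8), or 1.41-fold. *Hcn2* was the higher of the pair in 7 of 8 samples, and the difference passed the test at an adjusted p of 0.0234 (same exact test). The exception was VEH replicate 1, with 55.9 TPM of *Hcn2* and 67.3 TPM of *Pex5l*. All 4 genes were therefore ordered *Hcn2*, *Pex5l*, *Hcn3*, *Hcn4*.

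**Figure D1:**
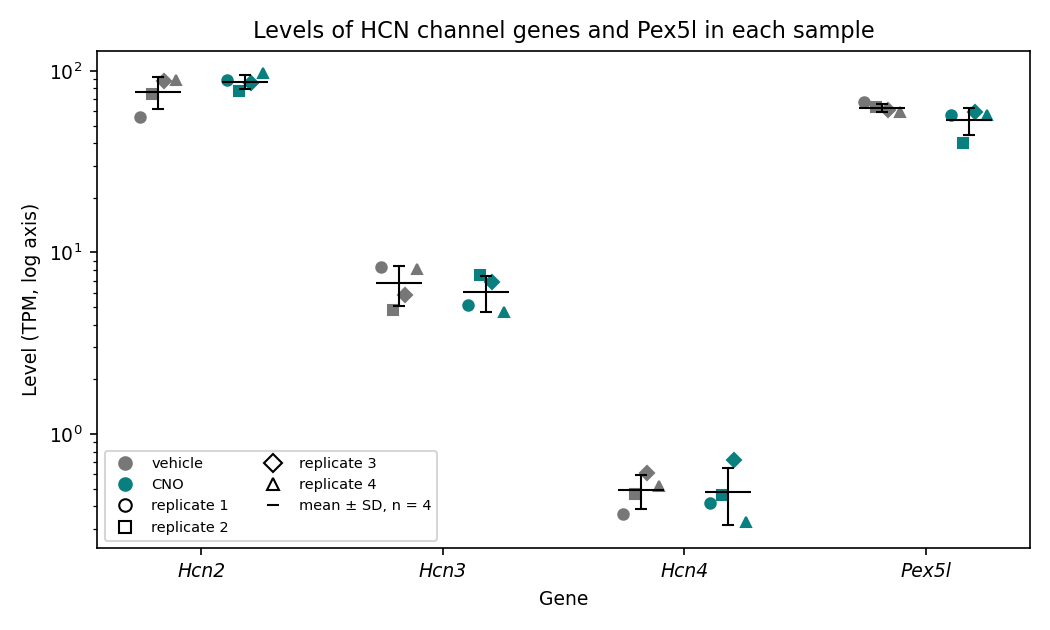
Level of each gene in TPM on a log axis, with 1 symbol per replicate number, vehicle samples in grey and CNO samples in teal, and horizontal lines and bars for the mean ± SD of 4 samples. The genes occupy separate ranges apart from *Hcn2* and *Pex5l*, the CNO and vehicle samples overlap for *Hcn2*, *Hcn3* and *Hcn4* and are only just apart for *Pex5l* (59.2 against 59.4 TPM), and *Hcn2* in VEH replicate 1 (55.9 TPM) and *Pex5l* in CNO replicate 2 (40.0 TPM) lie below the rest of their groups.

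*Hcn2*, which encodes a channel with strong cAMP modulation that is widely expressed in the brain, had 88.7, 77.6, 85.3 and 96.9 TPM in CNO replicates 1 to 4. In VEH replicates 1 to 4 it had 55.9, 74.6, 87.4 and 89.2 TPM. The vehicle samples thus spanned a wider range than the CNO samples, and the groups overlapped, with VEH replicate 1 lowest of all and CNO replicate 4 highest. The mean was 87.1 TPM ± 8.0 (SD, n = 4) for CNO and 76.8 TPM ± 15.3 (SD, n = 4) for vehicle. On normalized counts, the log2 fold change of CNO over vehicle was 0.25 ± 0.17 (SE), with an adjusted p of 0.817 in edgeR's quasi-likelihood test. The 95% interval of the fold ran from 0.918 to 1.54. A 1.5-fold rise therefore lay inside the interval and a 1.5-fold fall outside it. The difference rested largely on VEH replicate 1. Without it the log2 fold change was 0.10 ± 0.12 (SE, adjusted p = 1 in edgeR's quasi-likelihood test).

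*Hcn3*, whose channel responds little to cAMP, had 5.16, 7.48, 6.89 and 4.72 TPM in CNO replicates 1 to 4. Its level in VEH replicates 1 to 4 was 8.28, 4.85, 5.87 and 8.11 TPM. High and low samples occurred in both groups, and the ranges overlapped almost completely. The means were 6.06 TPM ± 1.33 (SD, n = 4) for CNO and 6.78 TPM ± 1.69 (SD, n = 4) for vehicle. With 280 to 477 counts per sample, counting error alone would give a coefficient of variation near 5.11%, whereas the CPM values varied by 14.3% among CNO samples and by 19.3% among vehicle samples. The log2 fold change was -0.03 ± 0.17 (SE, adjusted p = 0.968 by edgeR's quasi-likelihood test), with a 95% interval of the fold from 0.762 to 1.27. This interval left out a 1.5-fold change in either direction. VEH replicate 1, where *Hcn2* was lowest, had the highest *Hcn3* level of the 8 samples in TPM. In CPM it did not, with 8.97 against 9.62 in VEH replicate 4 and 9.59 in CNO replicate 2.

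*Hcn4*, which encodes the slowly activating channel known from the sinoatrial node and thalamus, was counted 34, 35, 58 and 28 times in CNO replicates 1 to 4. The counts in VEH replicates 1 to 4 were 25, 36, 50 and 42. In each group replicate 3 had the most counts, and the groups overlapped. The smallest count, 25, has an exact 95% Poisson interval of 16.2 to 36.9, and the largest, 58, one of 44 to 75. All 8 samples were above the floor of 3 counts. The level was 0.482 TPM ± 0.167 (SD, n = 4) for CNO and 0.490 TPM ± 0.103 (SD, n = 4) for vehicle, so that the gene did not reach the mean TPM of 1 required for a call. Its log2 fold change was 0.03 ± 0.30 (SE, adjusted p = 0.982 by edgeR's quasi-likelihood test). The 95% interval of the fold, 0.644 to 1.62, was the widest of the 4 genes and contained a 1.5-fold change in either direction. The CPM values varied by 34.9% among CNO and by 24.7% among vehicle samples, where counting error alone would give 16.1% and 16.2%. Thalamic relay neurons are another cell type that uses *Hcn4*. The 4 genes taken as their markers summed to 19.2 to 25.7 TPM for CNO and 21.4 to 25.8 TPM for vehicle. Of these, *Calb2* was also listed among 7 markers of interneurons other than PV+ cells, so that the sum is not specific to thalamic cells. Those 7 markers summed to 617 to 711 TPM for CNO and 708 to 819 TPM for vehicle. The part of either cell type in the *Hcn4* level was not tested.

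*Pex5l* had 57.2, 40.0, 59.2 and 57.0 TPM in CNO replicates 1 to 4. The vehicle samples had 67.3, 63.0, 60.8 and 59.4 TPM in the same order. All 4 vehicle samples and 3 of the CNO samples lay close together, and CNO replicate 2 was far below them. The mean was 53.3 TPM ± 8.94 (SD, n = 4) for CNO and 62.6 TPM ± 3.47 (SD, n = 4) for vehicle. On the TPM scale the groups did not overlap, since the highest CNO sample (59.2 TPM) was just under the lowest vehicle sample (59.4 TPM), but on TMM-normalized log2 CPM they did. The log2 fold change was -0.20 ± 0.16 (SE, adjusted p = 0.817 by edgeR's quasi-likelihood test), with a 95% interval of the fold from 0.681 to 1.12. Without CNO replicate 2 it was -0.03 ± 0.084 (SE, adjusted p = 0.852 by the same test). Non-overlapping log2 CPM values were seen for 423 of the 17495 genes (2.42%), and for none of the 4 genes described here. The share of all genes without overlap on the TPM scale was not counted.

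**Figure D2:**
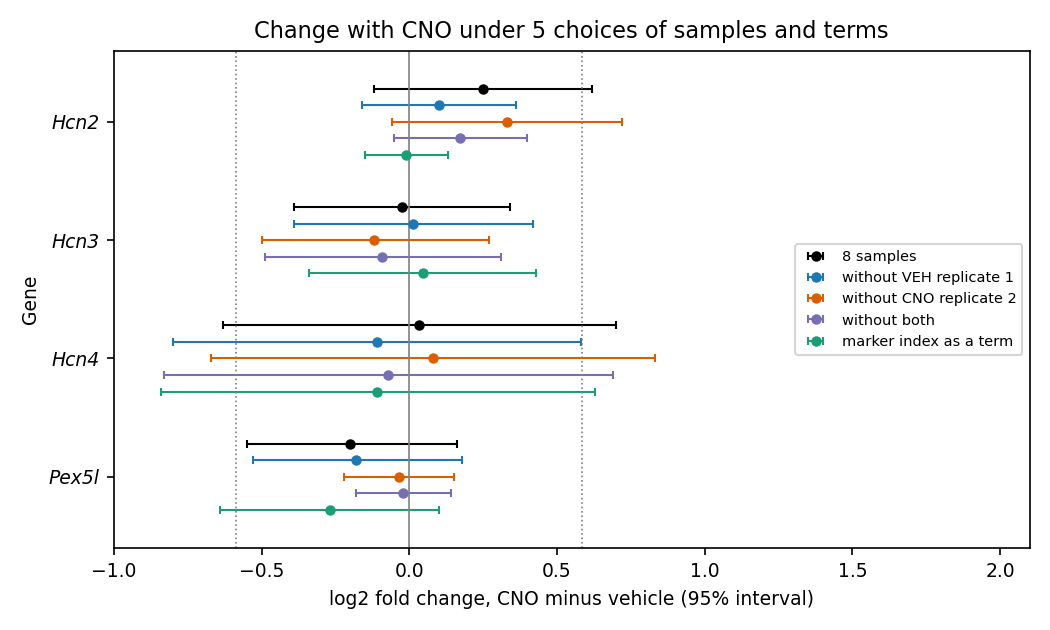
Log2 fold change of CNO over vehicle (x axis) for each gene with its 95% interval from edgeR's quasi-likelihood test, with all 8 samples, without VEH replicate 1, without CNO replicate 2, without both, and with the marker index as a term, and with dotted lines at a 1.5-fold change. Every interval spans 0, the *Hcn2* value moves from 0.25 to -0.01 with the marker index as a term, and the *Pex5l* value moves from -0.20 to -0.03 without CNO replicate 2.

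The composition of the channel transcripts was compared within samples, which does not depend on the scaling between samples. *Hcn2* made up 92.9% ± 2.0 (SD, n = 4) of the summed TPM of *Hcn2*, *Hcn3* and *Hcn4* for CNO and 91.1% ± 3.12 (SD, n = 4) for vehicle. The lowest share, 86.6%, was found in VEH replicate 1, and the remaining 7 samples lay between 90.7% and 95%. *Hcn3* took 6.57% ± 1.86 for CNO and 8.36% ± 3.14 for vehicle (SD, n = 4 each), and reached 12.8% in VEH replicate 1. Without VEH replicate 1, the difference between groups went from 1.86 to 0.375 percentage points for *Hcn2* and from -1.79 to -0.306 for *Hcn3*. The *Hcn4* share was 0.520% ± 0.191 and 0.583% ± 0.0494 (SD, n = 4 each). For none of the 3 shares did the difference between groups pass the test (adjusted p from 0.533 to 0.571, two-sided exact permutation test over 70 assignments, adjusted over 4 measures).

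The amount of *Pex5l* per summed channel TPM was 0.606, 0.468, 0.637 and 0.559 in CNO replicates 1 to 4 and 1.04, 0.789, 0.648 and 0.607 in VEH replicates 1 to 4. Values were lower in the CNO group, but CNO replicate 3 exceeded VEH replicate 4, so that the groups overlapped. The mean ratio was 0.567 ± 0.074 (SD, n = 4) for CNO and 0.772 ± 0.197 (SD, n = 4) for vehicle, a difference of -0.204 that did not pass the test (p = 0.0571, adjusted p = 0.229, two-sided exact permutation test, where 0.0286 is the smallest unadjusted p possible). Both samples singled out above enter this ratio. Without VEH replicate 1, the sample with the least *Hcn2*, the difference was -0.114 (exact permutation p = 0.114), and without CNO replicate 2, the one with the least *Pex5l*, it was -0.171 (exact permutation p = 0.2).

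The balance of PV+ interneuron and pyramidal cell markers differed between samples, and the levels of the 4 genes were set against a marker index, in which the mean log2 CPM of 10 pyramidal cell genes was subtracted from that of 9 genes of PV+ interneurons. None of the 4 genes is part of it. The index was 0.89, 0.15, 0.73 and 1.36 in CNO replicates 1 to 4 and -1.18, 0.21, 0.74 and 0.58 in VEH replicates 1 to 4. VEH replicate 1 was lowest and CNO replicate 4 highest, as for *Hcn2*. Across the 8 samples the *Hcn2* level (log2 CPM) correlated with the index at a Pearson r of 0.996 (exact permutation p = 7.44e-05, adjusted over 4 genes 0.000298) and a Spearman rho of 0.976 (exact permutation p = 0.000397, adjusted 0.00159). Its level rose by 0.41 on the log2 scale per unit of the index. Without CNO replicate 4 and VEH replicate 1, the samples farthest from the median index, r was 0.983 (n = 6, exact permutation p = 0.00417). The relation held in the pooled samples; each group alone had 4 samples, too few for a correlation of its own. In the group comparison with the index as a term, the log2 fold change of *Hcn2* was -0.01 ± 0.065 (SE), with a 95% interval of -0.15 to 0.13. The index was not independent of treatment. Of its 9 PV+ interneuron genes, 1 had an unadjusted p under 0.05 for CNO against vehicle in edgeR's quasi-likelihood test. This term can thus also take up a difference between treatments, and marker balance and treatment cannot be told apart here.

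Many genes followed the index, since 2275 of 17495 (13.0%) had an r above 0.9, but only 4 had a higher r than *Hcn2*. They were named after their values were seen. Among them, *Kcnc2* encodes a Kv3 potassium channel of fast-spiking cells and *Syt2* a calcium sensor of fast transmitter release, and *Syt2* is itself part of the index. The others were *Gpr176*, an orphan G protein-coupled receptor, and *Osbpl9*, an oxysterol-binding protein-like gene. The points share libraries and normalization, so that this order is a description.

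No relation to the index passed the test for the other 3 genes. For *Hcn3*, r was -0.300 and rho -0.476 (exact permutation p = 0.474 and 0.243), and without the same pair of samples r was 0.103. On log2(TPM + 1) it was -0.615 (exact permutation p = 0.0801), and without VEH replicate 2 it was -0.579 on log2 CPM. For *Hcn4*, r was 0.349 and rho 0.119 (exact permutation p = 0.398 and 0.793), and without the pair r was 0.424. For *Pex5l*, r was 0.020 and rho -0.119 (exact permutation p = 0.961 and 0.793), and without the pair r was 0.584 (exact permutation p = 0.221). Without CNO replicate 2 it was -0.775 (n = 7, exact permutation p = 0.054), so that its sign depended on the samples included. After adjustment over the 4 genes, none of these 3 relations on log2 CPM over all 8 samples had a p below 0.486. VEH replicate 1 had the lowest level of PV+ interneuron markers and the highest of pyramidal cell markers. In this sample *Pex5l* had its highest level, and *Hcn3* had its highest on the TPM scale but not in CPM. HCN genes and *Pex5l* are expressed in pyramidal cells as well, and the part of other cell types in these levels was not tested.

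**Figure D3:**
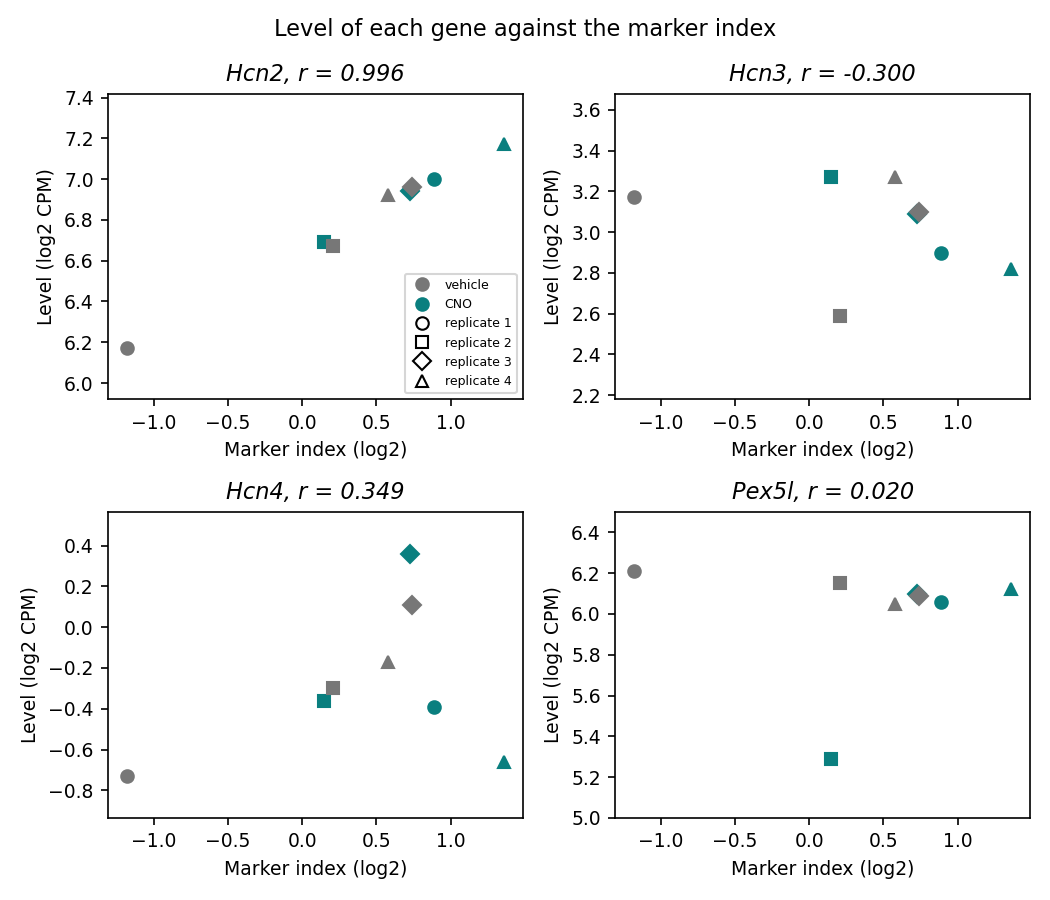
Level of each gene in log2 CPM (y axis, spanning the same width in each panel) against the marker index (x axis, log2) in the 8 samples, vehicle in grey and CNO in teal, with symbols for replicate numbers. *Hcn2* lies along a line (r = 0.996), *Hcn3* and *Hcn4* are scattered, and for *Pex5l* CNO replicate 2 lies far below the other 7 samples, over which r was -0.775.

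The genes with the most similar profiles over the 8 samples were sought among those with a mean TPM above 1, as a description without a test. For *Hcn2* they were *Tmem132c* (r = 0.996), *Dhrs7* (r = 0.995) and *Socs5* (r = 0.995), and 1979 genes had an r above 0.9, so that this profile was a common one. Only 38 genes reached an r above 0.9 with *Hcn3*, led by *Gon4l* (0.969), *Wdr90* (0.967) and *Col4a2* (0.953). *Hcn4* had 5 such genes, with *Etv4* at 0.956, *Gm5874* at 0.943 and *Stox2* at 0.936. With *Pex5l*, 32 genes had an r above 0.9, the first being *Gm10925* (0.990), *Rbbp4* (0.987) and *Gnaq* (0.975). *Gnaq* encodes the alpha subunit of the Gq protein to which hM3Dq couples. CNO replicate 2 had the lowest *Pex5l* level, and the similarity of profiles without it was not examined. By Dixon's criterion it was the lowest outlying CNO sample for 264 of the 17495 genes (1.51%). CNO replicate 4 was so for 193 genes (1.1%), and VEH replicate 1 was the lowest outlying vehicle sample for 981 (5.61%).

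Genes around the HCN channels were examined in 5 lists, namely partner proteins, cyclases, phosphodiesterases, related channels and other cAMP effectors. Of 74 genes, 68 passed the filter on low counts and were tested, and 0 passed the cut-offs. At an unadjusted p under 0.05 in edgeR's quasi-likelihood test, 0 were higher and 2 lower with CNO, or 2.94% of the 68 against 4.09% of all genes tested. Both were phosphodiesterase genes. By fitted sign, 27 of the 68 were above and 41 below 0, against 8810 above and 8685 below over all genes tested. The median log2 fold change of the 68 was -0.06, against 0.00 over all genes. Samples singled out above bore on this count. Without CNO replicate 2 it was 10 of 68 (14.7%), against 9.62% of all genes. Leaving out both CNO replicate 2 and VEH replicate 1 was chosen after seeing the data. The count was then 17 (25%), against 8.63% of all genes, with 6 higher and 11 lower. Without CNO replicate 4 the count was 1 (1.47%, against 1.82% of all genes). Without VEH replicates 2 and 3 in turn it was 4 (5.88% each), against 3.9% and 5.04% of all genes. No gene of the lists had an adjusted p under 0.05 in any of these fits.

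Binding and trafficking partners of HCN channels, together with the TRIP8b relative *Pex5*, formed the first list. All 18 were tested, none had an unadjusted p under 0.05, and the median log2 fold change was -0.05, within a range from -0.24 (*Kcne2*) to 0.66 (*Mrvi1*). The most abundant were *Vapa*, an endoplasmic reticulum contact site protein, with 271 TPM ± 30.2 for CNO and 262 TPM ± 28.0 for vehicle, and *Apba2*, a Munc18-interacting adaptor, with 136 TPM ± 5.5 and 137 TPM ± 5.29 (SD, n = 4 each). *Kcne2*, which encodes a small accessory subunit of potassium and HCN channels, had only 0.296 TPM ± 0.127 for CNO and 0.368 TPM ± 0.0752 for vehicle (SD, n = 4 each). *Pex5*, the peroxisomal import receptor to which TRIP8b is related, had 57.8 TPM ± 2.74 and 51.3 TPM ± 7.97 (SD, n = 4 each), with an unadjusted p of 0.105 in edgeR's test.

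Cyclases supply the cyclic nucleotides that bind the channels. None of the 13 had an unadjusted p under 0.05, and the median log2 fold change was -0.05. *Adcy2* and the soluble guanylyl cyclase subunit *Gucy1a3* were the most abundant, with a mean of 53.7 and 49.9 TPM over the 8 samples. *Adcy2* had 46.5 TPM ± 12.3 with CNO and 60.9 TPM ± 9.94 with vehicle (SD, n = 4 each), a log2 fold change of -0.33 that missed the threshold (unadjusted p = 0.0544, adjusted p = 0.817, edgeR's quasi-likelihood test).

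Phosphodiesterases break down cyclic nucleotides. Of 18 tested, 2 had an unadjusted p under 0.05, both lower with CNO, and the list's median log2 fold change was -0.14. *Pde4b*, a cAMP-specific enzyme, had 51.8, 68.9, 64.6 and 47.2 TPM in CNO replicates 1 to 4. In VEH replicates 1 to 4 it had 102, 77, 66 and 82.8 TPM. The CNO samples were low, and the groups overlapped in TPM at a single pair of samples but not in log2 CPM. Non-overlapping log2 CPM values were seen for 3 of the 68 list genes, *Pde4b*, *Pde8b* and the cyclase gene *Gucy1a2*. Over all genes tested they were seen for 423 of 17495 (2.42%). The log2 fold change of *Pde4b* was -0.37 ± 0.13 (SE, unadjusted p = 0.015, adjusted p = 0.817, edgeR's quasi-likelihood test). *Pde10a*, which hydrolyses cAMP and cGMP and is best known from striatal projection neurons, had 24.9, 26.1, 22.6 and 28.4 TPM with CNO. With vehicle it had 53.7, 36.4, 31 and 34.7 TPM. All CNO samples lay below all vehicle samples in TPM, a pattern whose share over all genes was not counted. In log2 CPM the groups overlapped, and VEH replicate 1 was the highest. The log2 fold change of *Pde10a* was -0.42 ± 0.14 (SE, unadjusted p = 0.015, adjusted p = 0.817, edgeR's quasi-likelihood test). Neither gene passed the adjusted threshold. The most abundant phosphodiesterases were *Pde4a*, with 175 TPM ± 14.5 for CNO and 172 TPM ± 15.1 for vehicle, and *Pde2a*, which is stimulated by cGMP, with 124 TPM ± 19.1 and 142 TPM ± 17.0 (SD, n = 4 each).

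The remaining lists held related channels and other effectors of cAMP. Of 14 channel genes related to HCN channels by this fold, 9 passed the filter, and none had an unadjusted p under 0.05. *Cnga1*, *Cnga3*, *Cngb1*, *Cngb3* and *Kcnh8* did not pass it. The list's median log2 fold change was -0.16, and 7 of the 9 had a negative value, as did 8685 of the 17495 genes tested. *Kcnh3*, an ether-a-go-go family potassium channel, was the most abundant, with 86.6 TPM ± 25.4 for CNO and 101 TPM ± 11.4 for vehicle, followed by *Kcnh7*, with 31.1 TPM ± 8.68 and 33.6 TPM ± 7.41 (SD, n = 4 each). Among 11 other cAMP effectors, the regulatory and catalytic subunits of protein kinase A, the Epac exchange factors and the Popeye proteins, 10 were tested, and none had an unadjusted p under 0.05. *Popdc2* did not pass the filter. The median log2 fold change of this list was 0.05. *Prkar1b* and *Prkar1a*, both regulatory subunits of protein kinase A, were by far more abundant than the channels, with a mean of 628 and 531 TPM over the 8 samples.

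**Figure D4:**
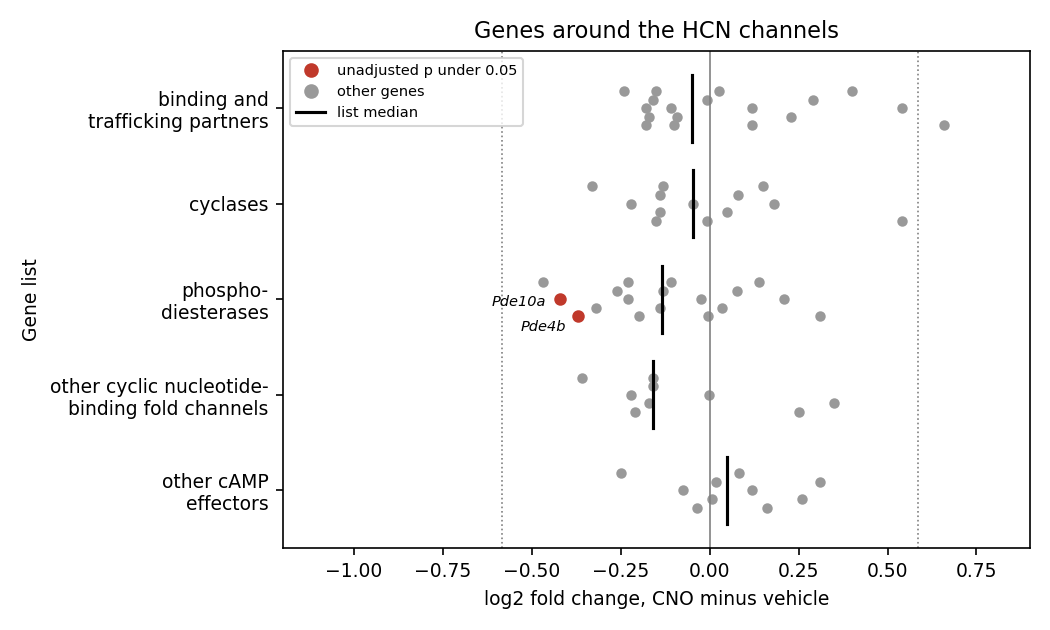
Log2 fold change of CNO over vehicle (x axis) for the 68 tested genes of 5 lists (y axis), with 1 point per gene, red points for an unadjusted p under 0.05 in edgeR's quasi-likelihood test, black lines for list medians and dotted lines at a 1.5-fold change. *Pde10a* (-0.42) and *Pde4b* (-0.37) are the red points, and the medians lie between -0.16 and 0.05.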

How the data were processed

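Ribosome-associated mRNA was sequenced from 4 CNO and 4 vehicle samples, grouped by their labels. The authors used Trim Galore for trimming, STAR for alignment to GRCm38, and Salmon with tximport for quantification. They deposited estimated counts without normalization or filter, and TPM, which correct for transcript length. Here the rounded counts entered edgeR 4.0.16 (R 4.3.3). A gene was dropped if at least 4 samples had fewer than 10 counts. After TMM normalization, the groups were compared by quasi-likelihood F test, adjusted by Benjamini-Hochberg over 17495 genes. Log2 CPM used a prior count of 2. The fit was tested on simulated data. Alternatives used DESeq2 1.42.0, limma 3.58.1 and sva 3.50.0. Single values were compared by exact permutation in Python 3.11.15, and plots were made with matplotlib 3.10.9.

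The members and the gene lists were chosen with earlier results of these data known. Named genes are the members, the 2 most abundant genes of each list, up to 6 genes per list with an unadjusted p under 0.05, and the 3 genes most similar to each member; others were named for the extremes of a range, for closeness to the threshold, for their role or after their values were seen. Replicate numbers come from the titles and name no pairing. Other experiments of the study were not analysed here.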

Additional observations from a re-analysis of the deposited data

Results flagged for a closer look

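The *Pex5l* level in CNO replicate 2 was 5.29 log2 CPM, while the other CNO samples lay between 6.06 and 6.12 log2 CPM. The gap to the nearest of them made up 0.933 of the group's range, above Dixon's 95% critical value for 4 samples. Of 18 groups of values examined in this way (4 genes, 4 composition measures and the marker index in each treatment group), this was the only one past the critical value, and chance gives about 5% of groups. The 4 vehicle samples had 6.05 to 6.21 log2 CPM. What set CNO replicate 2 apart was not tested.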

How the results depend on the processing

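None of the 4 genes had an adjusted p under 0.05, and 0 of them passed the cut-offs, in any of the alternatives run. The log2 fold change ranged over them from -0.012 to 0.34 for *Hcn2*, -0.16 to 0.055 for *Hcn3*, -0.24 to 0.18 for *Hcn4* and -0.30 to -0.02 for *Pex5l*. The direction for *Pex5l* held in every alternative. The cause of each shift below was not tested. *Hcn2* changed direction with the marker index as a term (-0.012). *Hcn3* changed direction with 1 surrogate variable (0.036) and with the index (0.046), and when 1 sample was left out it ranged from -0.16 to 0.055. *Hcn4* changed direction with the robust dispersion (-0.015), library size only (-0.021), limma on log2 TPM with 1 added (-0.012) or 0.1 added (-0.044), 1 surrogate variable (-0.11), the index (-0.11), and without both CNO replicate 2 and VEH replicate 1 (-0.072, chosen after seeing the data). With 1 sample left out it ranged from -0.24 to 0.18.

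Same-numbered samples did not deviate together (correlations 0.0263, -0.0302, 0.161 and 0.239), so the replicate block is given only as an alternative. With the replicate block the log2 fold changes were 0.27, -0.02, 0.01 and -0.23 for *Hcn2*, *Hcn3*, *Hcn4* and *Pex5l*, and 0 genes passed the cut-offs. In this fit 3 genes of the lists had an unadjusted p under 0.05 (4.41%, against 4.37% of all genes).

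All genes past the cut-offs numbered 12 with the robust dispersion, 10 with DESeq2, 4 without the filter on low counts, 3 with a term for replicates 1 and 2 against 3 and 4, 3 with 1 surrogate variable, and 0 to 2 with 1 sample left out. List genes at an unadjusted p under 0.05 numbered 4 with the robust dispersion (5.88%, against 4.81% of all genes) and 6 with library size only (8.82% against 4.94%). With limma they numbered 6 (8.82%) at either added value, against 5.37% of all genes with 1 added and 5.24% with 0.1 added. The replicate term gave 5 (7.35% against 6.82%), 1 surrogate variable 4 (5.88% against 3.34%) and the index 4 (5.88% against 3.28%). With 1 sample left out they numbered 1 to 10, or 1.47% to 14.7%, against 1.82% to 9.62% of all genes. Without both samples they numbered 17 (25% against 8.63%).

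Differences in level between the genes kept their order and stayed past the test in every alternative. An alternative on CPM per transcript length, as implied by counts and TPM, returns the same mean differences by construction. It is therefore no check of them. The *Hcn2* correlation with the index ranged from 0.986 to 0.998 with 1 sample left out. That of *Hcn3* ranged from -0.579 to -0.155, that of *Hcn4* from -0.215 to 0.720 and that of *Pex5l* from -0.775 to 0.529, with -0.187 for *Pex5l* on log2(TPM + 1). The share difference ranged from 0.375 to 2.62 percentage points for *Hcn2*, -2.56 to -0.306 for *Hcn3* and -0.147 to 0.00364 for *Hcn4*. The difference in *Pex5l* per channel TPM ranged from -0.259 to -0.114, and passed an unadjusted exact permutation p of 0.05 only without VEH replicate 4 (0.0286). For *Hcn4*, 25 to 58 counts per sample limit precision.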
